A study of Mus musculus with 6 samples.

Results

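The genes Zbed3, Gprin2, Arid3a, Btbd9, Capn10, Banp, and Fam122a each carried a cytosine in their mRNA whose 5-methylcytosine (m5C) level was higher after 2 h of neuronal depolarization than at 0 h and after 6 h. They were selected on these measured levels, so the level differences at these cytosines are given as a description, without a test. They are 7 of the 16850 gene labels in the deposited lists, where a label can join overlapping genes. Their 3408 listed cytosines were taken from 5240657 in all. Of these, 11 reached a level of at least 10% with at least 6 unconverted reads in at least 1 library and are called methylated positions here, and 7 of them, 1 per gene, are the lead positions with the largest rise after 2 h.

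RNA bisulfite sequencing (RNA BS-seq) was applied to poly(A) RNA from cultured cortical neurons of E16.5 embryos (C57BL/6, WT, males and females pooled). All cultures, the 0 h cultures included, were grown for 7 days and silenced overnight with 1 µM tetrodotoxin, a sodium channel blocker, and 100 µM DL-AP5, an NMDA receptor antagonist. KCl at 55 mM was then added to depolarize them, and they were harvested at once (0 h) or after 2 h or 6 h. Each time point had 2 biological replicates, which gives 6 libraries. Bisulfite turns a cytosine without the methyl mark into a base read as T, and m5C resists it and is read as C. The level of a position is its unconverted reads divided by unconverted plus converted reads, without reads of another base. A list holds a cytosine only when at least 10 reads covered it and at least 1 of them was unconverted, so a cytosine that is not listed was either covered by fewer reads or fully converted, and the 2 cases cannot be told apart.

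In mRNA, m5C is placed by RNA methyltransferases of the NSUN family, of which NSUN2 and NSUN6 modify different sequence contexts, and it is bound by reader proteins such as ALYREF, an mRNA export adaptor, and YBX1. Membrane depolarization with KCl opens voltage-gated calcium channels and starts a transcriptional program led by immediate early genes such as Fos and Npas4. The 7 genes belong to no common pathway. Zbed3 is a zinc finger protein that binds Axin and promotes Wnt/β-catenin signaling, and Gprin2 belongs to the G protein-regulated inducers of neurite outgrowth. Arid3a and Banp (also known as Smar1) are nuclear DNA-binding proteins. Btbd9 is a BTB domain protein linked to restless legs syndrome, Capn10 is an atypical calpain of the calcium-dependent protease family, and Fam122a is an inhibitor of the phosphatase PP2A.

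The 21 nt around each lead position are shown, since they place the cytosine that changed and let its flanks be compared. They are written 5′ to 3′ on the mRNA strand as DNA letters, with the lead cytosine in capitals, and all match the GRCm38 genome.
Zbed3: ccagcgggagCtggagctgga
Gprin2: gcctatcttaCggaagaaagt
Arid3a: attgcttaccCaggacacaga
Btbd9: gccccatactCagggttctgg
Capn10: acagggcagtCagcaggaggc
Banp: gaaggcgcctCagggttggag
Fam122a: cgatttcattCcggtgtctcc

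Of the lead positions, 3 lay in coding sequence and 4 in 3′ UTRs, by the principal transcripts of GENCODE M21. The Zbed3 window is chr13:95336474-95336494 (plus strand), and its lead position is the first base of codon 139 of 228, in exon 2 of 2. The Capn10 window is chr1:92943723-92943743 (plus strand), with the lead at the second base of codon 351 of 666, in exon 7 of 12. The Fam122a window is chr19:24476935-24476955 (minus strand), with the lead at the first base of codon 138 of 284 in the only exon. In the lists all 142 Fam122a cytosines are also assigned to Pip5k1b, whose locus holds Fam122a on the same strand, so neither their levels nor their coverage can be given to Fam122a alone. The Gprin2 window is chr14:34188421-34188441 (minus strand), with the lead 6016 nt after the last coding base of a 10354 nt transcript. The Arid3a window is chr10:79952816-79952836 (plus strand), with the lead 893 nt after the last coding base. The Btbd9 window is chr17:30216938-30216958 (minus strand), with the lead 3428 nt after it, and the Banp window is chr8:122025785-122025805 (plus strand), with the lead 163 nt after it.

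**Figure D1:**
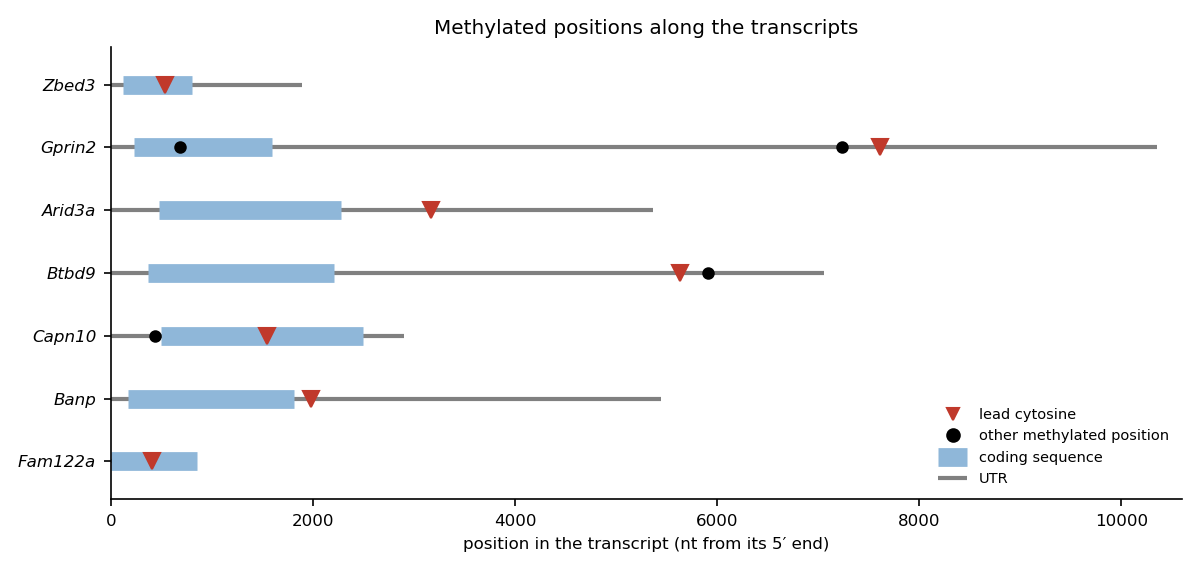
Methylated positions along 1 transcript of each gene, in nt from the 5′ end on the x axis, with coding sequence as thick blue bars and UTRs as thin grey lines. Triangles mark the 7 lead positions, 3 in coding sequence and 4 in 3′ UTRs, and dots mark the 4 other methylated positions.

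The flanks were compared with those of other cytosines, as a description. A G stood 2 bases after the lead cytosine in 7 of 7 lead positions, 3 bases after it in 5, and 4 bases after it in 2. A G at the 2nd base after the cytosine was found at 68.1% of 226 nuclear gene positions that also peaked after 2 h, at 44.7% of 1276 nuclear gene positions past the standard filter (coverage of at least 20, level of at least 10%, at least 6 unconverted reads in any library), and at 29.8% of 1367834 cytosines under 1%. The first 2 sets hold only positions with 20 or more reads in each of the 6 libraries, which the Arid3a lead did not have, and the last only cytosines with 100 or more reads in the 2 h replicate 1 library. The triplet GGG at bases 2 to 4 after the cytosine, as in Btbd9 and Banp, was found at 2 of 7 leads, and at 23.5%, 13.4%, and 1.79% of those 3 sets. The sequence CTCCA starting at the cytosine, known from targets of NSUN6, was found at 0 of 7 leads, 1.33% of the positions peaking after 2 h, 1.57% of those past the filter, and 0.733% of cytosines under 1%. Only the mRNA strand was read. Btbd9 and Banp shared the run ctCagggtt, 9 letters around the lead cytosine, while no other of the 21 gene pairs shared more than 4. This run was found at 2 of the 1276 nuclear gene positions past the filter, which are those 2 leads, and at 23 of the 1367834 cytosines under 1%.

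Zbed3 and Gprin2 reached the highest mean levels after 2 h. Zbed3 stood above Arid3a through replicate 1 alone, since its replicate 2, at 51.9%, lay below both Arid3a libraries (54.8% and 54.1%). At the Zbed3 lead, 21 of 133 reads and 15 of 95 reads were unconverted at 0 h (replicates 1 and 2), 35 of 58 and 28 of 54 after 2 h, and 22 of 99 and 13 of 91 after 6 h. The level was 15.8% ± 0 (SD, n = 2) at 0 h, 56.1% ± 6.01 after 2 h, and 18.3% ± 5.61 after 6 h, and every other SD below is also over 2 libraries. At the Gprin2 lead, 34 of 180 and 32 of 181 reads were unconverted at 0 h, 39 of 57 and 45 of 69 after 2 h, and 20 of 85 and 19 of 81 after 6 h. The level was 18.3% ± 0.855 at 0 h, 66.8% ± 2.27 after 2 h, and 23.5% ± 0.0514 after 6 h. In both genes, both 2 h libraries lay above all others, and their 95% Wilson intervals overlapped with none of the other libraries (the lowest bound after 2 h was 38.9% for Zbed3 and 53.4% for Gprin2). Reads copied by PCR cannot be told from reads of different molecules, so these intervals cover counting error only.

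Arid3a had the largest mean difference between 0 h and 2 h, closely followed by Gprin2. Without 0 h replicate 1 the order turned, with 47.9 percentage points in Arid3a and 49.1 in Gprin2. The Arid3a lead had 1 of 41 and 3 of 46 unconverted reads at 0 h, 17 of 31 and 20 of 37 after 2 h, and 3 of 16 and 1 of 20 after 6 h. The level was 4.48% ± 2.89 at 0 h, 54.4% ± 0.555 after 2 h, and 11.9% ± 9.72 after 6 h. The return rests on few reads: the Wilson interval of the 6 h replicate 1 library reached up to 43.0%, past the lowest bound after 2 h, 37.8%.

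At the Btbd9 lead, 6 of 37 and 7 of 32 reads were unconverted at 0 h, 23 of 49 and 17 of 38 after 2 h, and 30 of 110 and 22 of 142 after 6 h. The level was 19.0% ± 4.001 at 0 h, 45.8% ± 1.56 after 2 h, and 21.4% ± 8.33 after 6 h. The libraries of 2 h did not overlap with the others in level, but their Wilson intervals did, with a lowest bound of 30.1% after 2 h and a highest bound of 38.8% at 0 h and 36.3% after 6 h.

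Capn10, Banp, and Fam122a had lower levels after 2 h. At the Capn10 lead, 17 of 257 and 24 of 266 reads were unconverted at 0 h, 50 of 250 and 31 of 164 after 2 h, and 35 of 424 and 56 of 426 after 6 h, or 7.82% ± 1.70, 19.5% ± 0.776, and 10.7% ± 3.46. At the Banp lead, 17 of 386 and 16 of 282 reads were unconverted at 0 h, 28 of 262 and 39 of 201 after 2 h, and 30 of 690 and 48 of 786 after 6 h, or 5.04% ± 0.898, 15.045% ± 6.16, and 5.23% ± 1.24. The Banp replicates after 2 h differed most of these 3 genes, at 10.7% and 19.4%. At the Fam122a lead, 8 of 237 and 13 of 222 reads were unconverted at 0 h, 8 of 63 and 13 of 98 after 2 h, and 6 of 153 and 7 of 161 after 6 h, or 4.62% ± 1.75, 12.98% ± 0.401, and 4.13% ± 0.301. For all 3 genes both 2 h libraries were above the other 4 in level. Over the 7 genes, the Wilson intervals after 2 h were all above those at 0 h in 4 (Zbed3, Gprin2, Arid3a, and Capn10) and above those after 6 h in 2 (Zbed3 and Gprin2).

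**Figure D2:**
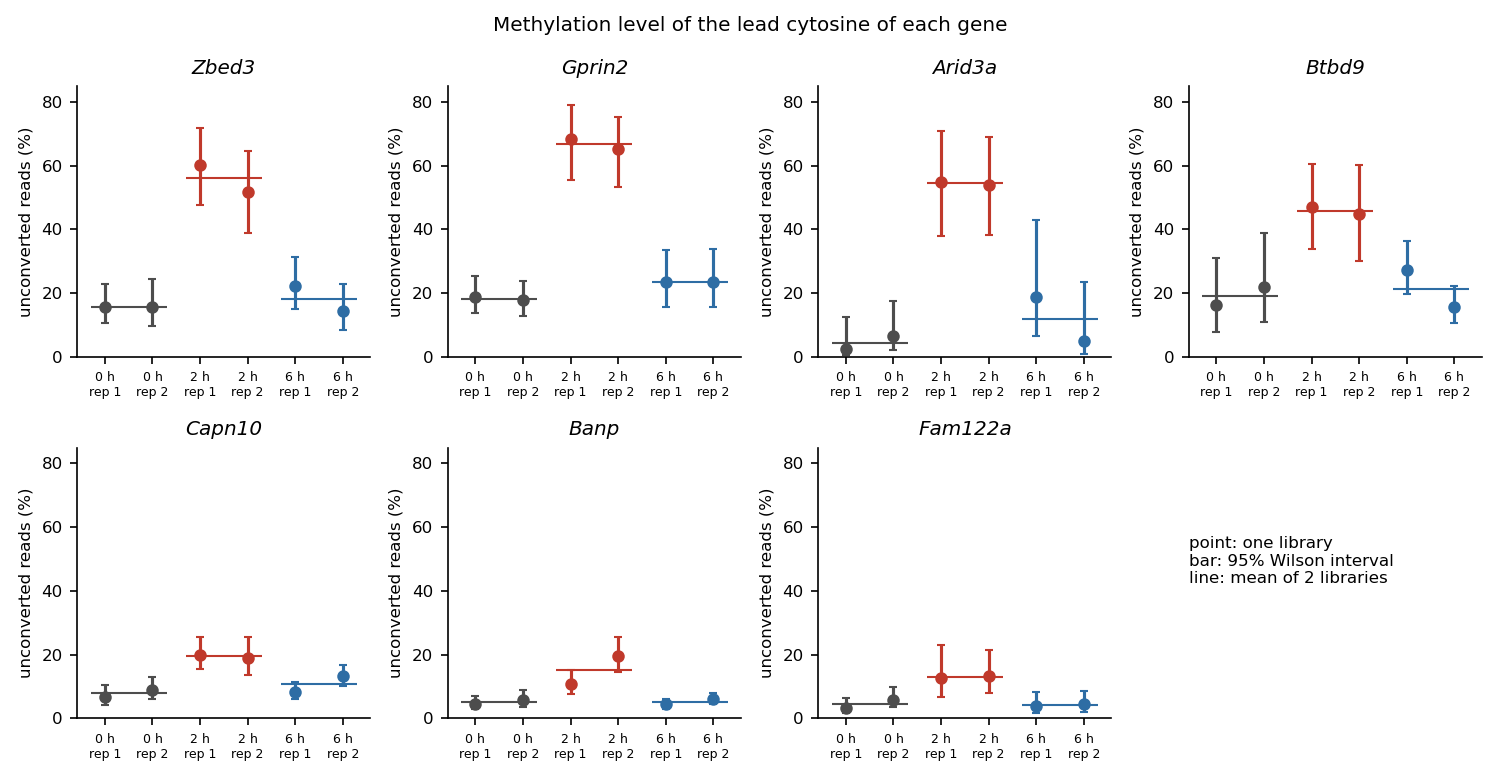
Level of the lead cytosine (unconverted reads, %, y axis) in each of the 6 libraries (x axis) for each gene, where points are libraries, bars are 95% Wilson intervals, and lines are means of 2 libraries. The 2 h libraries lie highest in all 7 panels, at 65.2% and 68.4% in Gprin2 and at 12.7% and 13.3% in Fam122a.

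Both 2 h libraries stood above all 0 h and 6 h libraries at 7 of 7 leads, which is what the genes were picked for. This order was found, over all positions past that filter in any library and with 20 or more reads in each of the 6, at 259 of 2947, or 8.79%. Among the nuclear positions of this set, as the leads are, it was found at 236 of 1951, or 12.1%. Of the leads, 6 had that coverage; Arid3a did not. The mean level of the 7 leads was 10.7% at 0 h, 38.7% after 2 h, and 13.6% after 6 h. Among 2258 other positions with 20 or more reads in each library and with a mean level of at least 10% after 2 h, the 5 most like this profile over the 6 libraries lay in Hsf1, Map6, Ranbp3, Pcsk4, and Trim2, with Pearson's r from 0.987 to 0.997. Hsf1, the main heat shock transcription factor, had mean levels of 1.46%, 12.2%, and 2.45% over time. Map6, a microtubule-stabilizing protein, had 41.4%, 64.9%, and 40.9%, and Trim2, a ubiquitin ligase, had 19.9%, 62.3%, and 30.1%. With 6 libraries and a search over all positions, these correlations only rank the positions.

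Apart from the leads, 4 methylated positions were found, in 3 of the 7 genes. The Btbd9 3′ UTR held a second position, at chr17:30216674, 274 nt downstream of its lead, and it was listed in all 6 libraries. It had 4 of 82 and 8 of 75 unconverted reads at 0 h, 19 of 133 and 16 of 107 after 2 h, and 36 of 307 and 36 of 331 after 6 h. Its level was 7.77% ± 4.09, 14.7% ± 0.572, and 11.3% ± 0.601, so that both 2 h libraries were again highest, by a smaller step. The other 3 positions were each listed in 1 library with 6 unconverted reads. They were chr14:34188810 in the Gprin2 3′ UTR (6 of 37 reads, 16.2%, 0 h replicate 1), chr14:34195359 in its coding sequence (6 of 59, 10.2%, 2 h replicate 1), and chr1:92934813 in the Capn10 5′ UTR (6 of 51, 11.8%, 6 h replicate 1).

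Close to the minimums, the lowest values that still passed were those 10.2% in Gprin2 and 10.7% at the second Btbd9 position in the 0 h replicate 2 library. Just outside was a further position in the Btbd9 3′ UTR, chr17:30216316, with 9 of 99 reads unconverted at 0 h (9.38%, replicate 1), 8 of 133 and 8 of 97 after 2 h (6.02% and 8.25%), and 19 of 233 and 5 of 256 after 6 h (8.15% and 1.98%). It did not show the order of the lead. Short of reads was a Gprin2 cytosine at chr14:34194868, with 5 of 10 reads unconverted in the 2 h replicate 2 library.

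Where cytosines next to the leads were listed, their levels were low. Within 50 nt on either side of the 7 leads the genome holds 188 other cytosines, from 24 around Zbed3 and Gprin2 to 31 around Fam122a, and 63 of them were listed in any library. The conversion of the others is not known where coverage was under 10 reads. The highest level among these was 3.03%, next to the Btbd9 lead. Summed over both libraries and all 7 windows, the neighbors had 62 unconverted reads at 0 h, 26 after 2 h, and 55 after 6 h, whereas the 7 leads alone had 214, 393, and 312. Around Gprin2 the neighbors had 8, 1, and 0 unconverted reads, around Zbed3 6, 1, and 7, around Capn10 15, 7, and 8, and around Banp 27, 14, and 30. If each neighbor had been covered as deeply as its lead, its unconverted share would have been 0.0715% on average over the libraries, against 0.0838% to 0.115% at deeply covered cytosines under 1% in all transcripts. The higher end belongs to the 6 h replicate 1 library.

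**Figure D3:**
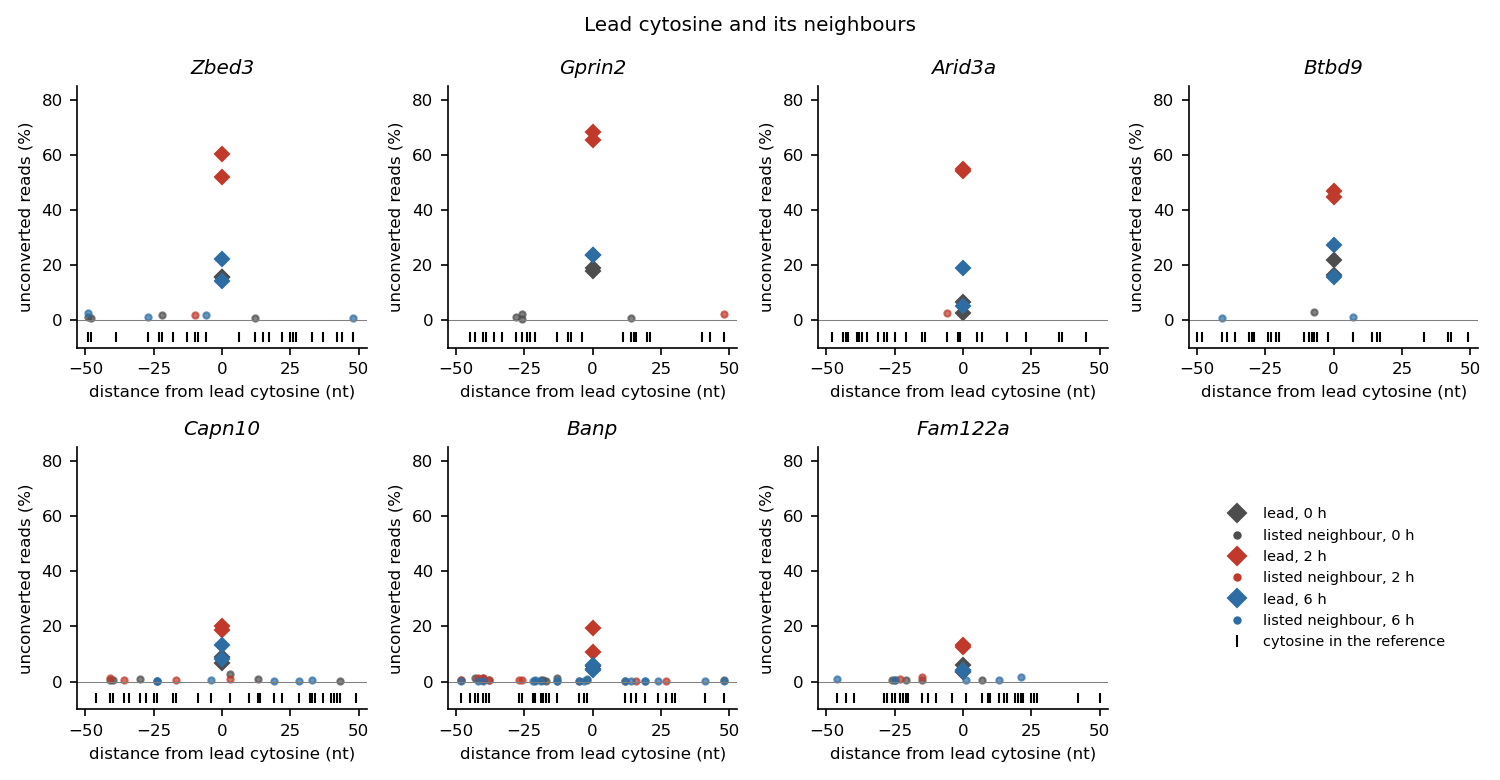
Level (unconverted reads, %, y axis) against distance from the lead cytosine in nt (x axis, 5′ to 3′) for each gene, with diamonds for the lead, dots for listed neighbors, each in every library, and ticks below 0 for all cytosines of the reference. No listed neighbor exceeded 3.03%, while the leads reached 12.7% to 68.4% after 2 h, apart from 10.7% in the Banp replicate 1 library.

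Across their whole length, the genes were unevenly listed. Btbd9 had 1506 listed cytosines, Gprin2 603, Capn10 513, Banp 446, Zbed3 148, Fam122a 142, and Arid3a 50. Of the 3408, 1947 were listed in 1 library and 13 in all 6, of which 7 are the leads. The median coverage per listing was 397 reads in Btbd9, 382 in Banp, 352 in Capn10, 79.5 in Zbed3, 68.0 in Gprin2, 58.0 in Fam122a, and 34.0 in Arid3a. Without the leads, but with the 4 other methylated positions, the median level of a listing was between 0.325% in Btbd9 and 3.33% in Fam122a. Because a listing needs 1 unconverted read, this median is set upward where coverage is low.

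The level is a ratio, so its unconverted and converted reads are also given apart, each divided by the scaling factor of its library (0.924 to 1.13). At the Zbed3 lead, scaled unconverted reads were 18.9 and 16.2 at 0 h, 31.0 and 29.6 after 2 h, and 23.3 and 12.3 after 6 h, and scaled converted reads were 101 and 86.6, 20.4 and 27.5, and 81.7 and 73.6. Unconverted reads were thus 1.73-fold and converted reads 0.256-fold of 0 h after 2 h. At the Gprin2 lead, unconverted reads were 30.6 and 34.6, 34.6 and 47.6, and 21.2 and 17.9, and converted reads were 131 and 161, 16.0 and 25.4, and 69.0 and 58.5. Most of the change at Gprin2 was in converted reads, 0.141-fold after 2 h against 1.26-fold for unconverted reads, which did not clear both 0 h libraries.

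Fam122a had about as many unconverted reads after 2 h as at 0 h. They were 7.2 and 14.1 at 0 h, 7.1 and 13.7 after 2 h, and 6.4 and 6.6 after 6 h, or 0.980-fold after 2 h, while converted reads were 206 and 226, 48.8 and 89.8, and 156 and 145, or 0.321-fold. The unconverted ratio of Fam122a was 0.667-fold without 2 h replicate 2 and 1.45-fold without 0 h replicate 2. Arid3a was the opposite in size: unconverted reads were 0.90 and 3.2 at 0 h, 15.1 and 21.1 after 2 h, and 3.2 and 0.94 after 6 h, or 8.73-fold after 2 h, against 0.368-fold for converted reads. The Arid3a ratio rests on 4 unconverted reads at 0 h, and it was 5.58-fold without 0 h replicate 1 and 20.1-fold without 0 h replicate 2.

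In Btbd9, Capn10, and Banp, mean unconverted reads were higher after 6 h than after 2 h, but the libraries overlapped in Capn10 and Banp. The Btbd9 lead had 5.4 and 7.6 scaled unconverted reads at 0 h, 20.4 and 18.0 after 2 h, and 31.8 and 20.8 after 6 h. Its converted reads were 27.9 and 27.1, 23.1 and 22.2, and 84.9 and 113, so the level was lower after 6 h while unconverted reads stood at 1.37-fold of 2 h and converted reads at 4.38-fold. Scaled unconverted reads at the Capn10 lead were 15.3 and 25.99 at 0 h, 44.4 and 32.8 after 2 h, and 37.1 and 52.9 after 6 h, and at the Banp lead they were 15.3 and 17.3, 24.8 and 41.2, and 31.8 and 45.3. Without 6 h replicate 2 the direction from 2 h to 6 h turned, with 37.1 against a mean of 38.6 in Capn10 and 31.8 against 33.0 in Banp. The Capn10 lead was at 1.87-fold unconverted and 0.666-fold converted reads of 0 h after 2 h, and after 6 h at 1.17-fold and 2.40-fold of 2 h. The Banp lead was at 2.03-fold and 0.611-fold of 0 h after 2 h, and after 6 h at 1.17-fold and 3.69-fold of 2 h. For Zbed3, Gprin2, Arid3a, and Fam122a, unconverted reads after 6 h were 0.587-fold, 0.477-fold, 0.114-fold, and 0.623-fold of 2 h. The Arid3a value rests on 3 and 1 unconverted reads in the 6 h libraries.

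Both 2 h libraries were above both 0 h libraries in scaled unconverted reads at 5 of 7 leads, and below them in scaled converted reads at 7 of 7. Among the 236 nuclear positions with the same 2 h peak and coverage of at least 20, these shares were 71.6% and 56.4%. The median ratio of 2 h to 0 h was 1.87 for unconverted reads at both the leads and those positions, and 0.368 against 0.799 for converted reads. These counts come from the contrast that picked the genes and are given as a description.

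**Figure D4:**
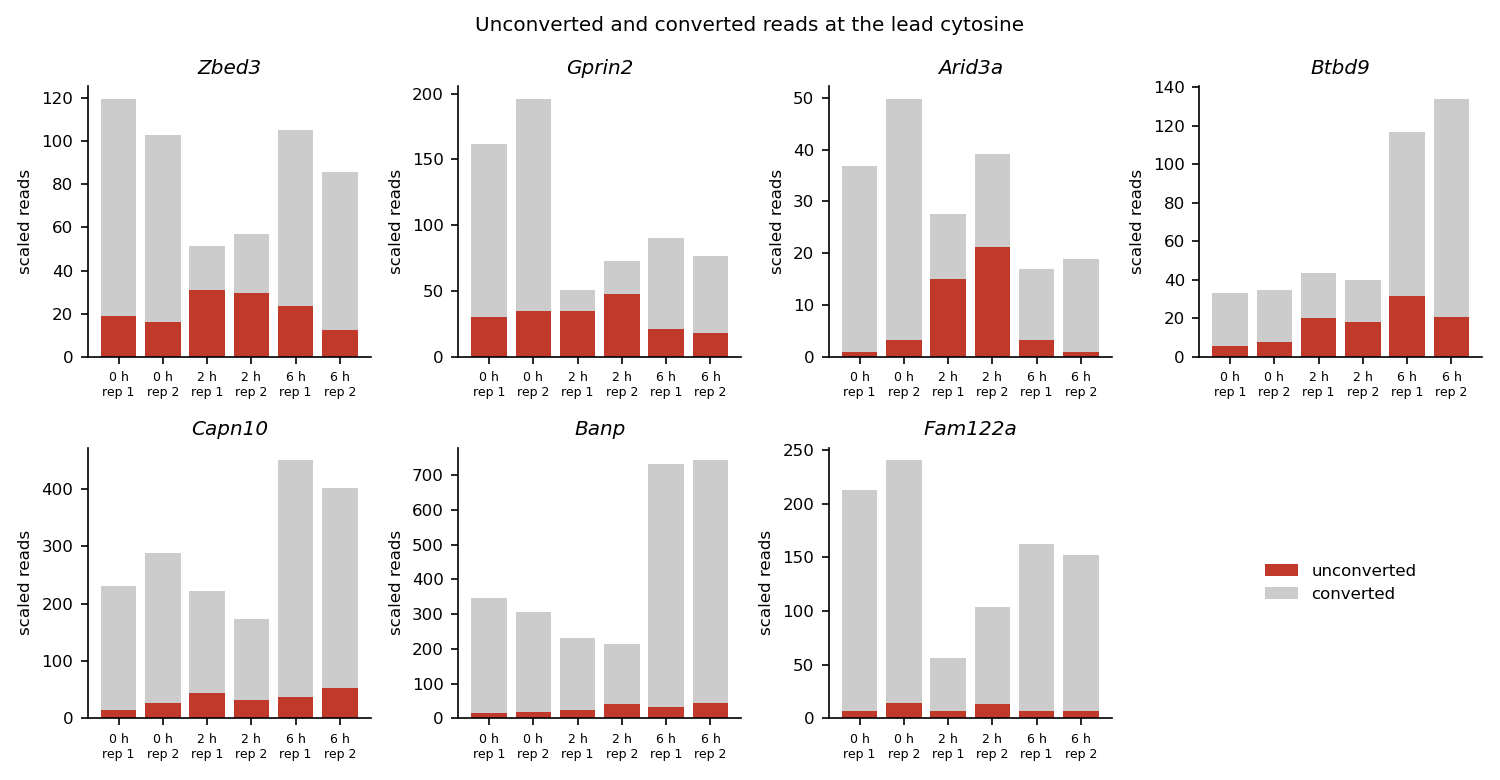
Reads at the lead cytosine divided by the scaling factor of the library (y axis, stacked) in each library (x axis), with unconverted reads in red and converted reads in grey. From 0 h to 2 h the grey part shrinks in all 7 genes, to 0.141-fold in Gprin2 and 0.824-fold in Btbd9, and the red part stays at 0.980-fold in Fam122a.

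The read coverage of the genes was then compared over time at their other cytosines, whose levels the choice of the genes did not use. Cytosines near a lead can share reads with it, so these comparisons are not independent of that choice. For each gene, the coverage of positions listed in at least 2 libraries was fitted with position and library effects, without the methylated positions, and the library effects were tested with limma over 9253 genes. At 2 h vs. 0 h, coverage changed in 5 of the 6 genes that could be tested, all lower; 39.1% of all genes tested were called in either direction and 21.0% were lower. Arid3a had too few listings for this test. Few cytosines lay behind some of the other fits. The 2 h replicate 2 library listed 8 in Zbed3, 8 in Fam122a, and 17 in Gprin2, leads included, against 505 in Btbd9. Each gene entered limma with its library effects alone, so the SE does not reflect these numbers. RNA was pooled over all cells of a culture, so a change in cells and a change in RNA per cell cannot be told apart.

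Gprin2 and Fam122a had the largest falls. The scaled coverage of Gprin2 was 145 and 138 reads per cytosine at 0 h, 32.9 and 39.3 after 2 h, and 98.6 and 95.6 after 6 h. The log2 fold change at 2 h vs. 0 h was −1.98 ± 0.13 (SE), with an adjusted p of 9.63e-05 in limma. Fam122a had 286 and 363 at 0 h, 88.7 and 140 after 2 h, and 242 and 219 after 6 h, a log2 fold change of −1.53 ± 0.22 after 2 h (adjusted p 0.0020). In both genes the 2 h libraries lay below all others.

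Zbed3 had a scaled coverage of 105 and 111 at 0 h, 70.8 and 53.5 after 2 h, and 115 and 119 after 6 h, and its log2 fold change after 2 h was −0.81 ± 0.15 (limma, adjusted p 0.00657). Banp had 436 and 394, 252 and 244, and 1007 and 936, with −0.74 ± 0.08 after 2 h (adjusted p 0.000666). Capn10 had 402 and 454, 342 and 370, and 721 and 731, with −0.26 ± 0.08 after 2 h (adjusted p 0.0448), the smallest step that passed. It no longer passed without 0 h replicate 2 (adjusted p 0.230), 2 h replicate 1 (0.118), 6 h replicate 1 (0.0852), or 6 h replicate 2 (0.0852). Btbd9 had 286 and 303, 288 and 315, and 815 and 848.5, and its difference after 2 h, 0.03 on the log2 scale, did not pass (adjusted p 0.771, 95% interval −0.15 to 0.22).

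At 6 h vs. 2 h, coverage was higher in 6 of 6 genes, where 63.4% of all genes tested were called in either direction and 32.3% were higher. The log2 fold changes were 1.97 in Banp, 1.47 in Btbd9, 1.43 in Gprin2, 1.05 in Fam122a, 1.03 in Capn10, and 0.93 in Zbed3, with adjusted p from 3.1e-05 in Banp to 0.00509 in Fam122a (limma). With all listed positions, Gprin2 did not pass (0.87, adjusted p 0.0669), and Fam122a had 2.26 (adjusted p 0.0366). At 6 h vs. 0 h, 4 of 6 genes passed, against 65.1% of all genes tested. Btbd9 (2.82-fold), Banp (2.34-fold), and Capn10 (1.70-fold) rose above 0 h, and Gprin2 stayed lower (0.686-fold, adjusted p 0.00919), though not past the threshold without 0 h replicate 1 (0.0572) or 6 h replicate 2 (0.0513). Zbed3 (1.09-fold, adjusted p 0.517) and Fam122a (0.713-fold, adjusted p 0.0874) did not pass, but Fam122a passed without 2 h replicate 1 (0.0090) or 2 h replicate 2 (0.00977). The comparisons share libraries, so they are not independent of each other.

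Scaling was also done to total coverage, summed over nuclear gene positions listed in all 6 libraries, in place of the median. The median of all genes at 2 h vs. 0 h then moved from −0.01 to −0.18 on the log2 scale, and the calls from 1669 higher and 1946 lower to 819 and 3277. At 6 h vs. 0 h the median moved from 0.01 to −0.14, and the calls from 2992 and 3031 to 2216 and 3845. The directions of the called genes named above held under both. When all listed positions were averaged without position effects, 2 of 7 genes were called at 2 h vs. 0 h, and 3 genes no longer passed (limma). This setting called 721 of 11127 genes in all, against 3615 of 9253 in the main fit. Zbed3 then had a log2 fold change of −1.13 (adjusted p 0.0533). The fall itself was far smaller in Banp, at −0.24 in place of −0.74 (adjusted p 0.506), and close to 0 in Capn10, at −0.0034 in place of −0.26 (adjusted p 0.996). The log2 fold change was then −1.32 in Gprin2 and −2.77 in Fam122a, so the order of these genes turned.

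**Figure D5:**
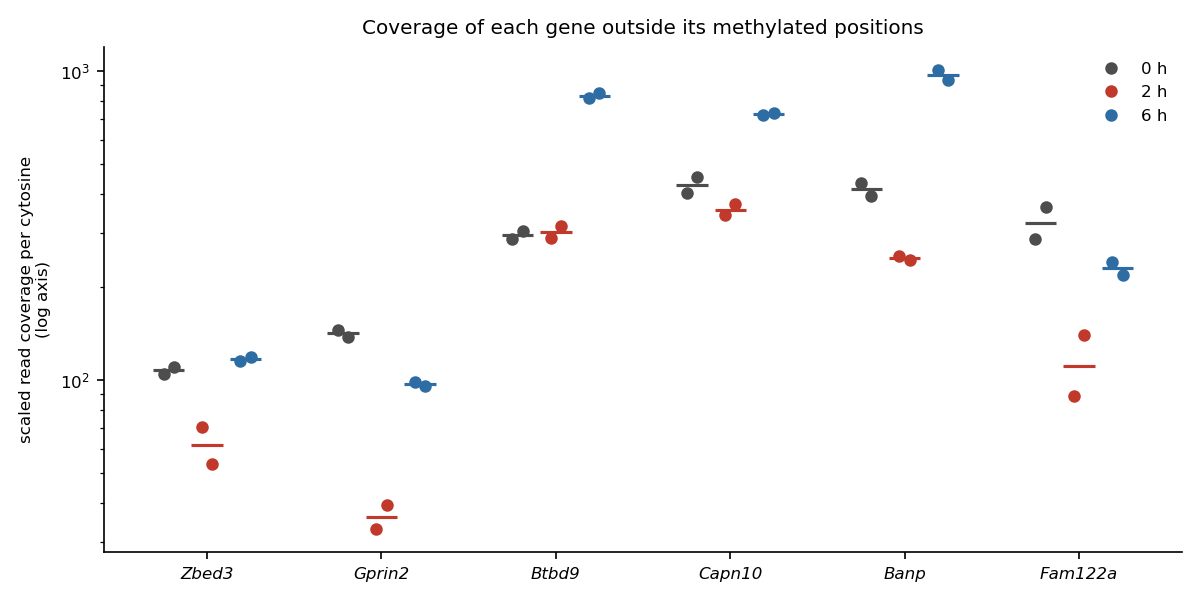
Scaled read coverage per cytosine outside the methylated positions (y axis, log scale) for the 6 genes with enough listings (x axis), where points are libraries and lines are geometric means of a time point. Coverage after 2 h is lowest in 5 genes and equal to 0 h within the replicates in Btbd9, and both 6 h libraries lie above both 0 h libraries in Btbd9, Capn10, and Banp and, by a step that did not pass the test, in Zbed3.

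A list of 50 relatives and partners of the 7 genes (calpains, ARID and BTB proteins, ZBED and GPRIN paralogs, the Axin complex, PP2A subunits, and Banp partners) was compared in the same fit. It holds Smar1, another name of Banp, which no list uses. Of these, 39 could be tested. At 2 h vs. 0 h, 11 were higher and 5 lower, where 39.1% of all genes tested were called, with a median log2 fold change of 0.10 against −0.01 over all genes. At 6 h vs. 0 h, 17 were higher and 8 lower (65.1% of all genes called), with medians of 0.25 and 0.01. At 6 h vs. 2 h, 15 were higher and 9 lower (63.4% of all genes called), with medians of 0.15 and 0.01. Ppp2r2a, the PP2A subunit inhibited by Fam122a, rose after 2 h by 0.82 (adjusted p 0.000393, limma), and Axin1, the scaffold of the β-catenin destruction complex, rose by 0.71 (adjusted p 0.00111), whereas Axin2 of the same complex fell by 0.75 (adjusted p 0.00547). The largest rise in the list was that of Btbd10 (1.11, adjusted p 0.000887), a BTB domain protein. Arid4a fell by 1.33 (adjusted p 0.00155).

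Positions past the standard filter in any library were found in 12 of the 46 relatives that were listed, against 2330 of the 16850 gene labels, or 13.8%, without regard to gene length or coverage. Of these positions, 2 were listed in all 6 libraries. In Gsk3b, the kinase of the β-catenin destruction complex, the level at chr16:38241294 was 9.4% and 10.8% at 0 h, 18.8% and 15% after 2 h, and 11.1% and 12.1% after 6 h, so both 2 h libraries were above the other 4. In Cux1, a homeodomain transcription factor, the level at chr5:136250590 was 10.3% and 7.0%, 8.7% and 8.5%, and 8.9% and 6.8%, and the time points overlapped. Cux1 held 13 further positions past the filter between chr5:136567410 and chr5:136567477, of 28 such positions in all relatives. Their levels were 15.8% to 100% with 10 to 24 reads, and none was listed in all 6 libraries. The paper's further filters, among them those for reads with several unconverted cytosines and for conversion-resistant regions, were not applied here. Whether these closely spaced Cux1 cytosines were methylated or incompletely converted was not tested.

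The libraries listed 1559828 to 2374392 cytosines each, with a median coverage of 324 to 480 reads. Of 22 marker genes, 20 were listed. All 5 neuronal markers (Tubb3, Map2, Rbfox3, Snap25, and Syt1) were listed, with median coverages from 129 to 14191 reads, as were 4 astrocyte markers, from 91.0 to 2510, and 4 of the oligodendrocyte lineage, from 55.0 to 446. Of 4 microglial markers, Cx3cr1 and Aif1 were listed, with median coverages up to 212.5 reads, and Csf1r and C1qa were in none of the lists. Summed over each list, unscaled median coverage in time order was 18406, 11918, and 10162 for neurons, 4041, 3833, and 3162 for astrocytes, 1138, 829, and 913 for the oligodendrocyte lineage, and 252, 178, and 168 for microglia. The listed cytosines differ between time points, so these sums are not matched by position. Snap25 had a median of 486 at 0 h and 129 after 2 h, while its fitted log2 fold change was 0.21 (adjusted p 0.0906, limma). The neuronal sum follows Tubb3, which fell after 2 h by 0.89 on the log2 scale (adjusted p 6.65e-05, limma), while Rbfox3 (0.29, adjusted p 0.0322) and Syt1 (0.33, adjusted p 0.0269) rose. Of the 4 astrocyte markers tested at 2 h vs. 0 h, Aldh1l1 passed, at −0.19 (adjusted p 0.0445), and Slc1a3 had 0.10 (adjusted p 0.241). None of the 3 tested of the oligodendrocyte lineage passed, and Cx3cr1, the microglial marker tested, fell by 0.48 (adjusted p 0.0129). Of all genes tested, 39.1% were called at 2 h vs. 0 h, 63.4% at 6 h vs. 2 h, and 65.1% at 6 h vs. 0 h, in either direction. Lower coverage at 6 h vs. 2 h was found in 3 of 4 astrocyte markers, among them Gfap (−0.55, adjusted p 0.00746). In the oligodendrocyte lineage 2 of 3 were higher, Mbp by 0.97 (adjusted p 0.00465) and Olig2 by 0.56 (adjusted p 0.00084). Cx3cr1 was lower, at −0.38 (adjusted p 0.0187), and 3 of 5 neuronal markers passed, with Tubb3 at −0.24, Rbfox3 at −0.57, and Snap25 at 0.44. At 6 h vs. 0 h, Gfap (−0.58), Aldh1l1 (−0.55), Pdgfra (−0.36), Cx3cr1 (−0.86), Tubb3 (−1.13), and Rbfox3 (−0.27) fell and Olig2 (0.55) and Snap25 (0.65) rose, with adjusted p from 1.13e-05 in Tubb3 to 0.0263 in Rbfox3 (limma). The part of these lists in the coverage results was not tested. Fos had a median coverage of 30.5 at 0 h, 4910 after 2 h, and 2762 after 6 h, and its log2 fold change after 2 h was 7.14 ± 0.10 (SE, adjusted p 3.22e-07, limma).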

How the data were processed

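RNA BS-seq lists of 6 libraries of mouse cortical neurons were used, 2 per KCl time point. Per the study's methods, trimmed reads were aligned by meRanTK to GRCm38 (mm10 in the submitters' processing notes), and its caller meRanCall listed the cytosines. For each listed position the authors deposited counts of covering, unconverted, and other-base reads, without normalization, and the level as a fraction, rounded. Replicates were not pooled. RNA-seq data were not used here.

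Cytosines in state M whose gene field held 1 of the 7 genes were taken. The genes, and the lists of relatives and markers, were chosen with earlier results of these data known. The named positions were all those at 10% or more with 6 or more unconverted reads. The lead was the one with the largest mean at 2 h over the larger of 0 h and 6 h, and the 5 positions most like the mean lead profile were named. The standard filter adds a coverage of at least 20. The paper's other filters were not applied here. They concern reads with several unconverted cytosines, signal/noise, false discovery rate, secondary structure, and presence in both replicates. Positions were placed with GENCODE M21, and sequences came from the lists, checked against GRCm38. Intervals are 95% Wilson intervals.

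The coverage test fixed first, the mean over at least 10 positions listed in all 6 libraries, left 0 of the 7 genes testable. The values given therefore come from an additive model of log2 coverage (position and library effects, positions in at least 2 libraries, at least 3 listings per library, no pseudocount), chosen after seeing the data. Library effects were centered on the median gene and tested with limma-trend, two-sided, with Benjamini-Hochberg adjustment over 9253 genes at 0.05. With 2 replicates, p-values measure only the spread between these libraries. Coverage is known only where at least 1 read was unconverted. Alternatives were total-coverage scaling, other position minimums, all listed positions, edgeR, the replicate block, leaving out each library, and other coverage and level minimums. Python 3.11.15, numpy 2.4.6, pandas 2.3.3, pysam 0.24.0, matplotlib 3.10.9, R 4.3.3, limma 3.58.1, and edgeR 4.0.16 were used.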

Additional observations from a re-analysis of the deposited data

How the results depend on the processing

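The level differences of the 7 leads kept their direction with summed reads, with coverage minimums of 20 and 50 where libraries remained, and without each library. Without each library in turn, 2 h minus 0 h ranged from 36.1 to 44.6 percentage points in Zbed3, 46.9 to 50.1 in Gprin2, 47.9 to 52.0 in Arid3a, 24.0 to 29.6 in Btbd9, 10.4 to 12.8 in Capn10, 5.65 to 14.4 in Banp, and 7.13 to 9.61 in Fam122a. The Banp range comes from leaving out 2 h replicate 2 or 1. For 2 h minus 6 h it was 33.6 to 42.1, 41.7 to 44.9, 35.7 to 49.4, 18.6 to 30.3, 6.31 to 11.2, 5.46 to 14.2, and 8.56 to 9.13. With a level minimum of 20%, 5 positions remained in place of 11.

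Of the genes tested for coverage, 5, 4, and 6 were called (2 h vs. 0 h, 6 h vs. 0 h, and 6 h vs. 2 h). Leaving out each library gave 4 to 5, 3 to 5, and 6 to 6. All listed positions gave 2 of 7 at 2 h vs. 0 h, where 721 of 11127 genes were called in all. With at least 3 shared positions Btbd9 alone was left, with 0, 1, and 1 called. At least 10 or 30 shared positions left none to test. At least 1 shared position is no independent setting, since in Zbed3, Gprin2, Arid3a, and Fam122a that position is the lead itself. Gprin2 at 6 h vs. 2 h did not pass with it (0.49, adjusted p 0.113) or with all listed positions (0.0669), and at 6 h vs. 0 h not with all listed positions (0.270). Fam122a at 6 h vs. 0 h passed with total-coverage scaling (0.0364) and with edgeR (0.0479). No direction of a called gene turned in any of these settings, but with all listed positions the change at 2 h vs. 0 h was close to 0 in Capn10 (−0.0034) and small in Banp (−0.24).

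Over all genes, 3615, 6023, and 5865 were called. At least 10 shared positions gave 575, 1300, and 1057, at least 1 gave 1417, 2962, and 2657, at least 3 gave 920, 1995, and 1716, at least 30 gave 345, 823, and 625, and all listed positions gave 721, 2987, and 2477. Genes, positions, and the form of the model differ between these settings, and which of them moves the counts was not tested. Leaving out each library gave 2146 to 3805, 4882 to 6574, and 4604 to 6068, and the lowest at 2 h vs. 0 h were 2146 without 0 h replicate 1 and 2278 without 0 h replicate 2. The labels do not say whether replicates were paired across time points, and the main fit did not pair them. Over 2131 genes, the differences between replicates 1 and 2 correlated at 0.444 (0 h and 2 h), −0.296 (0 h and 6 h), and −0.279 (2 h and 6 h). Whether libraries of different time points shared a batch was not tested. The replicate block gave 3441, 5958, and 5803 calls over all genes and 5, 4, and 6 among the 6 genes.

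The unconverted share of other cytosines that stayed under 10% was 0.582% over those listed in all 6 libraries (3 in Btbd9, 1 in Capn10, and 1 in Banp). It was 0.421% over all listed positions. Both leave out cytosines that were not listed. The 0.0715% over the neighbors of the leads takes every neighbor at the coverage of its lead, so it is a different measure. The share of positions highest at 2 h was 7.18% at a coverage of 10 and 10.5% at 50. For nuclear positions, as the leads are, it was 12.1% at a coverage of 20 and 15.5% at 50. Level differences at Arid3a are limited by 16 to 46 reads.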
